A study of Arabidopsis thaliana with 12 samples.

Results

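Gene expression in rb10 seedlings was set against that in wild type (WT) after 5 days of darkness, on 3 arrays labelled rb10 dark and 3 arrays labelled WT dark, 6 of the 12 arrays of the series. The other groups were rb10 and WT seedlings that also received 1 h of white light, 3 arrays each. All seedlings carry the Col-0 background and grew without sucrose, and each array holds RNA from a pool of whole etiolated seedlings hybridised to the Affymetrix Gene 1.0 ST array. The labels do not describe the rb10 allele. From knowledge of the study, rb10 is an insertion mutant of RAPTOR1, also called RAPTOR1B, and where its insertion lies relative to the array's probes is not known here. The labels call the replicates biological, and each p-value rests on the spread seen between those arrays.

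RAPTOR is the subunit through which the kinase TOR (target of rapamycin) recognises its substrates. TOR couples growth, including protein synthesis and cell wall extension, to sugar and nitrogen supply, and it restrains autophagy, the recycling of cell contents. A seedling in darkness lives on the oil and protein stored in its seed, elongates its hypocotyl and keeps a precursor of chlorophyll bound to protochlorophyllide oxidoreductase until light arrives.

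RAPTOR1 itself had signals of 11.06, 11.08 and 11.60 on the rb10 dark arrays, against 11.84, 11.66 and 11.63 on the WT dark arrays, all on the log2 scale. Replicates 1 and 2 of rb10 lay below every WT array, whereas the array labelled rb10 dark replicate 3 lay close beneath the lowest of them. RAPTOR2, the second Arabidopsis gene for this subunit, had 8.08, 7.93 and 7.69 in rb10 and 8.23, 7.88 and 7.94 in WT, and the groups overlapped. No probe set was paired with TOR. The array labelled rb10 dark replicate 3 therefore goes against its label at RAPTOR1. Counts over all probe sets are given with every array as labelled and with rb10 replicates 1 and 2 only. Dark differences and calls of single genes and groups are those of rb10 replicates 1 and 2 unless stated otherwise. The choice of replicates 1 and 2 was made with the values of the doubted array known, so it is no independent test of RAPTOR1. Every call below is a Benjamini-Hochberg adjusted p under 0.05 in a limma fit over 17481 probe sets, and a difference is rb10 minus WT in log2 units, where 1 equals a 2-fold change.

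**Figure D1:**
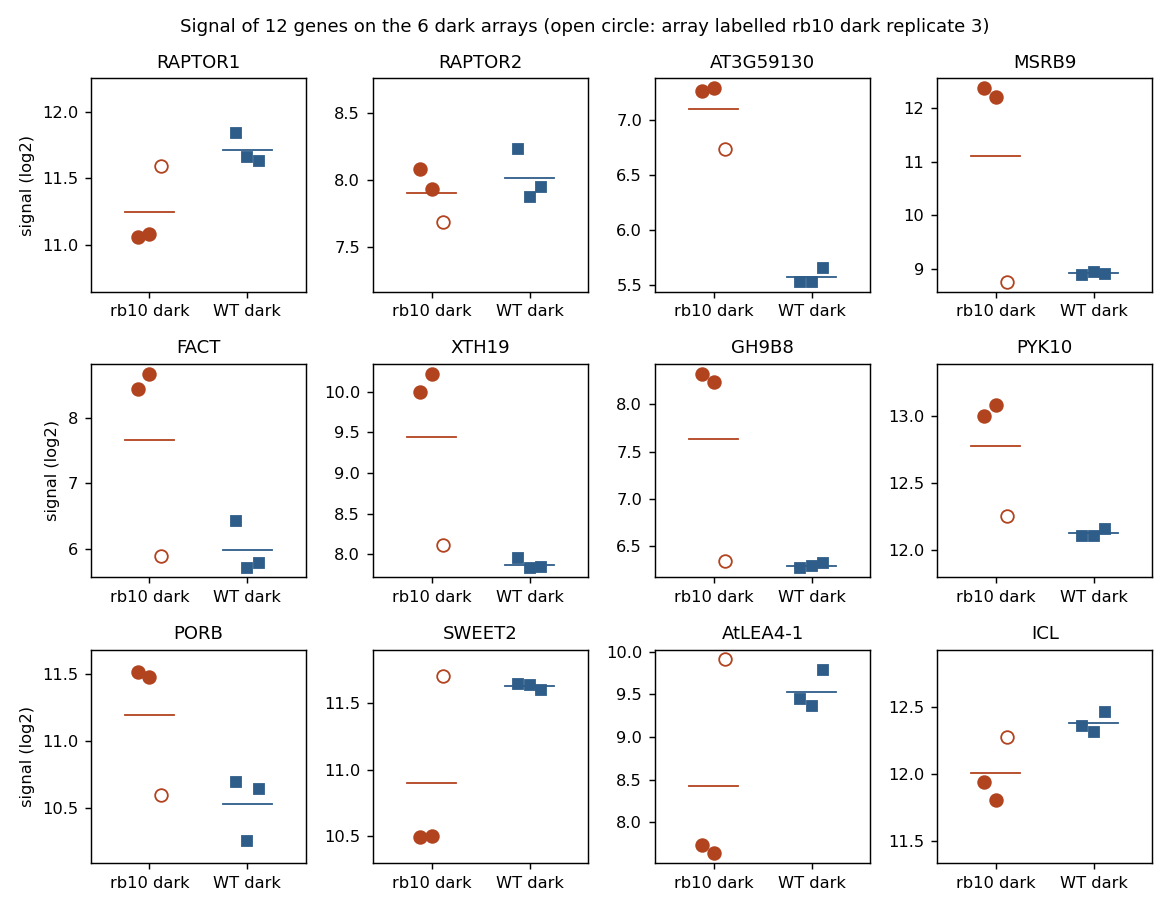
Log2 signal (vertical axes, a separate scale in each panel) of 12 genes on the 3 rb10 dark arrays (circles) and the 3 WT dark arrays (squares), with lines at the group means over every array. The open circle, the array labelled rb10 dark replicate 3, lies near the WT squares for MSRB9, GH9B8 and PORB, and AT3G59130 is the gene called with every array.

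With every array as labelled, 1 of 17481 probe sets was called, or 0.00572%, and none was lower in rb10, although 2613 had an unadjusted p under 0.05. The called gene was AT3G59130, with 7.27, 7.29 and 6.74 in rb10 and 5.53, 5.53 and 5.65 in WT. All 3 rb10 arrays lay above all 3 WT arrays for it, and the difference was 1.53 (limma adjusted p = 0.0337). With rb10 replicates 1 and 2 only, 1761 probe sets were called, or 10.1%. Of these, 993 were higher in rb10 (5.68%) and 768 were lower (4.39%). The median change was 0.90 among the higher ones and -0.72 among the lower ones, and 392 rose and 232 fell by more than 2-fold. RAPTOR1 was among the lower genes, with a difference of -0.64 (SE 0.11, adjusted p = 0.00775), against -0.46 with every array (adjusted p = 0.255). It was not called without rb10 replicate 1 or without rb10 replicate 2. RAPTOR2 differed by -0.01 (adjusted p = 0.972).

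The count of 1761 rests on both remaining rb10 arrays. It was 652 without rb10 replicate 1, 613 without rb10 replicate 2 and 1145 without WT replicate 2, and it was 968 when the dark arrays alone were fitted. A fit that kept all 12 arrays and weighted each by its agreement with its group gave the doubted array the lowest weight, 0.333 against 0.791 to 1.47 for the others. That fit called 1345 probe sets, 766 higher and 579 lower, of which 1284 were also called in the same direction with replicates 1 and 2. Setting all arrays to equal medians changed the split between higher and lower: 738 higher and 1556 lower, so that 32.2% were higher in place of 56.4%, and the median difference of all tested probe sets was -0.15 in place of -0.03. A second quantile normalization gave 850 higher and 1021 lower. Through 11 further fits 159 genes called with replicates 1 and 2 were followed, those named below and the other called members of the groups, and 72 of them stayed called in each. None of these 11 fits used the array labelled rb10 dark replicate 3. Many of the smaller changes named below lost their call without rb10 replicate 1 or 2, or in the dark arrays alone.

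**Figure D2:**
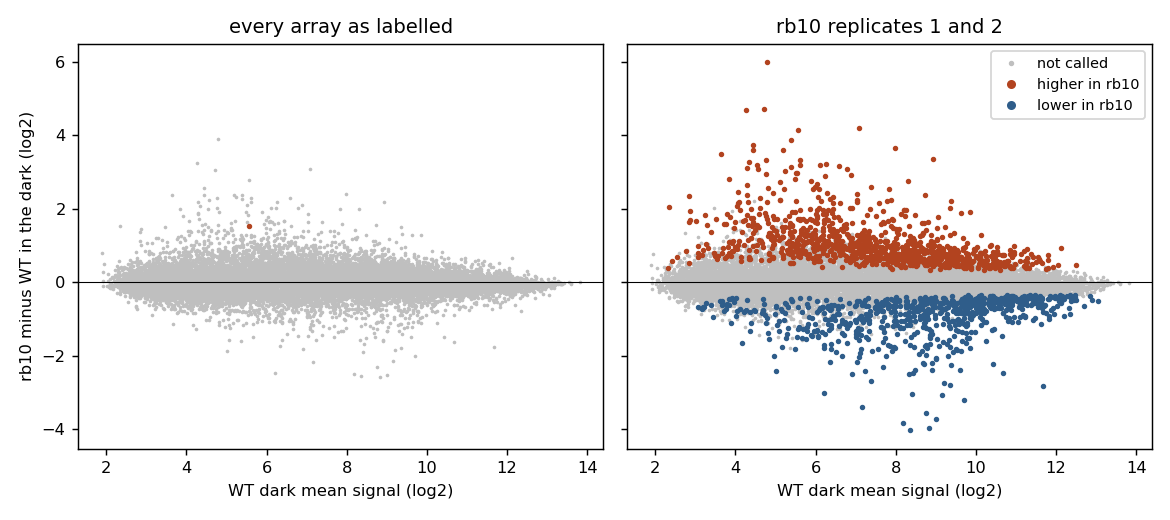
Difference between rb10 and WT in the dark (vertical, log2) against the WT dark mean signal (horizontal, log2) for 17481 probe sets, with every array as labelled on the left and rb10 replicates 1 and 2 on the right. One point is coloured as called on the left, against 993 higher and 768 lower on the right.

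The array labelled rb10 dark replicate 3 lay nearer to the WT dark mean than to the mean of rb10 replicates 1 and 2 for 1619 of the 1761 called probe sets, or 91.9%. On a scale where 0 is the WT mean and 1 the mean of the other rb10 arrays, its median position was 0.077. For 818 of them it lay within the range of the WT arrays, for 621 beyond that range on the side of the other rb10 arrays, and for 322 beyond it on the opposite side. These probe sets were chosen on the arrays they are read on. The light comparison gives another choice. In the 12-array fit, which takes its spread from the dark arrays as well, 1700 probe sets were called higher in rb10 after light (9.72%) and 1655 lower (9.47%). On the rb10 dark arrays the higher ones lay above the WT dark mean by a median of 0.45 in replicate 1, 0.47 in replicate 2 and 0.05 in replicate 3. The lower ones lay at medians of -0.29, -0.30 and -0.01. For the 3 rb10 dark arrays together the medians were 0.33 and -0.20, and for replicates 1 and 2 they were 0.46 and -0.29. A fit of the 6 light arrays alone, added after seeing the data, called 1782 higher (10.2%) and 1660 lower (9.5%) without use of any dark array. Its higher ones had medians of 0.52, 0.54 and 0.04 on rb10 dark replicates 1, 2 and 3, and its lower ones -0.34, -0.35 and -0.001.

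**Figure D3:**
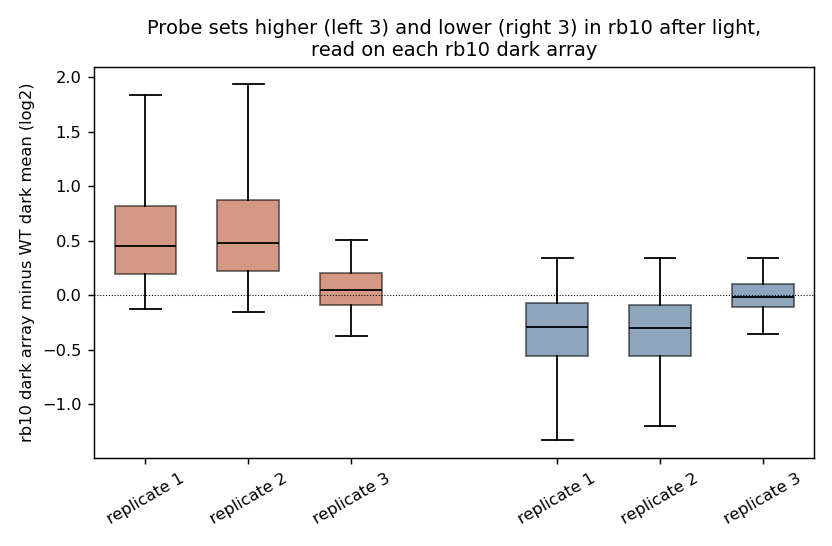
Signal on each rb10 dark array minus the WT dark mean (vertical, log2) for the 1700 probe sets called higher (left 3 boxes) and the 1655 called lower (right 3 boxes) in rb10 after light. Boxes span the quartiles with a line at the median and whiskers reach the 5th and 95th percentiles, and replicate 3 is centred near 0 in both sets.

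The largest rises with rb10 replicates 1 and 2 were mostly in genes that the annotation table knows only by a locus code. AT4G11190 had 10.77, 10.77 and 4.48 in rb10 and 5.11, 4.98 and 4.26 in WT, a difference of 5.99 (SE 0.37, adjusted p = 2.52e-05). Replicates 1 and 2 stood far above every WT array, and replicate 3 fell within the WT range. With every array its difference was 3.89 (limma adjusted p = 0.255), and none of the 12 largest rises was called. AT4G11210, which has a locus number close to it, had 8.62, 9.28 and 4.66 in rb10 and 3.96, 4.24 and 4.59 in WT, a difference of 4.69. AT1G26390 rose by 4.72, AT1G55990 by 4.21 and AT2G23540 by 4.14. The next were AT1G58320 (3.87), AT5G13900 (3.74), AT4G33610 (3.66), AT5G07475 (3.61), AT4G36610 (3.59) and AT3G06460 (3.48). The WT means of AT4G11210, AT5G13900, AT4G36610 and AT3G06460 lay under 4.61, the 25th percentile of mean signal over tested probe sets, so their sizes and ranks rest on weak WT signals. The twelfth was MSRB9, a methionine sulfoxide reductase of the family that repairs oxidised methionine, with 12.36, 12.19 and 8.76 in rb10 and 8.90, 8.95 and 8.92 in WT. Its difference was 3.35 (SE 0.10, adjusted p = 4.97e-07), whereas its relative MSRB4 had 8.22, 8.66 and 9.96 in rb10 and 9.69, 9.50 and 9.52 in WT and fell by 1.13. MSRB4 was picked after its values were seen and lost its call without rb10 replicate 1. All 12 genes kept their call in each further fit.

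The largest falls were again mostly in genes known by a locus code. AT3G29970 had 4.33, 4.31 and 8.74 in rb10 and 8.01, 8.64 and 8.42 in WT, a difference of -4.04 (SE 0.26, adjusted p = 2.77e-05). AT3G17520 had 4.86, 4.90 and 8.99 in rb10 and 8.74, 8.56 and 9.22 in WT, a difference of -3.96. In both, replicates 1 and 2 lay far below WT and replicate 3 did not. With every array AT3G29970 differed by -2.56 (limma adjusted p = 0.267), and none of the 12 largest falls was called. AT1G66000 fell by 3.82, AT1G78720 by 3.73, AT1G66870 by 3.56, AT2G25780 by 3.41 and AT3G58450 by 3.22. The others were AT3G16660 (-3.06), AT2G18540 (-3.04), AT1G02575 (-3.03), M17 (-2.82) and AT5G63350 (-2.80). For AT3G29970, AT1G66000, AT2G25780 and AT1G02575 the mean of rb10 replicates 1 and 2 lay under 4.61, the 25th percentile of mean signal. The sizes and ranks of their falls rest on weak rb10 signals. In AT1G02575 and AT3G16660 replicate 3 also lay below the WT arrays. AT1G02575 had 2.84, 3.54 and 4.84 in rb10 and 6.46, 5.98 and 6.21 in WT, and AT3G16660 had 6.03, 6.13 and 8.85 in rb10 and 9.30, 9.05 and 9.08 in WT. All 12 kept their call in each further fit.

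Gene groups were read from symbols and older names in the annotation table, and 41 of 52 groups had a measured member. For protein families a measured member below is one found by such a name. Family members without one were left out, though they may be on the array and called. A probe set could be assigned to 16.8% of protein-coding genes that have a symbol and to 86.3% of genes that have a locus code alone, so each group is a part of its family. Over all tested probe sets 10.1% were called and the median difference was -0.03, which is the background for every count below from that fit. For the counts under equal medians the background was 738 higher and 1556 lower of 17481, with a median of -0.15. In whole seedlings fewer cells of a type and less RNA per cell cannot be told apart.

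Late embryogenesis abundant proteins and dehydrins, hydrophilic proteins that accumulate in the maturing seed and under drought or cold, held more lower than higher members in rb10. Of the 12 members found by name 6 fell, 1 rose and 5 were not called, with a median of -0.24. LEA, a dehydrin, had 5.50, 5.24 and 7.83 in rb10 and 7.37, 7.54 and 8.11 in WT, a difference of -2.30 (SE 0.29, adjusted p = 0.00128). AtLEA4-1 had 7.73, 7.63 and 9.91 in rb10 and 9.45, 9.36 and 9.78 in WT, a difference of -1.85. In both genes replicates 1 and 2 lay below all WT arrays and replicate 3 did not. LEA18 fell by 1.28 and LTI30, a cold-induced dehydrin, by 0.98. The cold-regulated genes KIN2 and COR47 fell by 1.33 and 0.42, but neither was called in the dark arrays alone. The member that rose, AT2G46140 (LEA27), had 8.12, 8.37 and 7.69 in rb10 and 6.97, 7.29 and 7.32 in WT, a difference of 1.05. Of the seed storage and oleosin group 1 of 2 fell: PAP85, a vicilin-like storage protein, had a difference of -0.99, which was also not called in the dark arrays alone. KIN2, COR47 and PAP85 lost their calls without rb10 replicate 1 or rb10 replicate 2, and LEA18 without rb10 replicate 2. With every array none of these genes was called, and LEA differed by -1.48 (adjusted p = 0.279).

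Genes for the use of seed oil fell by small amounts. Of 4 measured members 3 were lower, and their median was -0.40. ICL, the isocitrate lyase of the glyoxylate cycle, had 11.94, 11.80 and 12.27 in rb10 and 12.36, 12.31 and 12.46 in WT, a difference of -0.51 (SE 0.10, adjusted p = 0.0103). All 3 rb10 arrays lay below all 3 WT arrays for ICL, but replicate 3 lay close to the lowest WT array. SDP1, the lipase that starts the breakdown of stored oil, differed by -0.40, and PPDK, pyruvate orthophosphate dikinase, also by -0.40. None of the 3 calls was made when the dark arrays alone were fitted. ICL lost its call without rb10 replicate 2, and the others without rb10 replicate 1 or rb10 replicate 2. SDH2-3, a succinate dehydrogenase subunit of seeds, differed by -1.26 and was singled out after its values were seen, and its call ended without rb10 replicate 1 or 2.

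Of 11 autophagy genes 2 fell, 9 were not called, and the median was -0.16. Both that fell encode ATG8, the small protein that coats autophagosomes. ATG8E had 9.75, 9.86 and 10.34 in rb10 and 10.23, 10.35 and 10.44 in WT, a difference of -0.54 (adjusted p = 0.0291). ATG8B differed by -0.44 (adjusted p = 0.0459). Neither was called in the dark arrays alone or without rb10 replicate 1 or 2. ATL8, a RING ubiquitin ligase gene of the sugar starvation group, had 6.80, 7.06 and 8.18 in rb10 and 7.92, 8.17 and 8.48 in WT, a difference of -1.26. It was the member called among 4, and it lost its call without rb10 replicate 1. A set of genes of nitrogen, sulfur and starch breakdown was singled out after its values were seen. ASPGB1, an asparaginase, had 7.59, 7.58 and 9.40 in rb10 and 9.23, 9.38 and 9.42 in WT, a difference of -1.76 (SE 0.11, adjusted p = 2.52e-05). MGL, a methionine gamma-lyase, fell by 0.92 and AMY1, an alpha-amylase, by 0.98, a call that ended without rb10 replicate 1.

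Among transporters, SWEET2, a sugar carrier of the vacuole, had 10.50, 10.50 and 11.71 in rb10 and 11.64, 11.63 and 11.60 in WT. Its difference of -1.13 (SE 0.11, adjusted p = 0.000234) was the one call among 20 sugar transporters, and replicate 3 lay just above the WT arrays. Of 17 nutrient and metal transporters 2 fell and 1 rose. AT1G68570 (NPF3.1) and AT1G59740 (NPF4.3), of the nitrate and peptide transporter family, fell by 1.43 and 1.40. AT1G33440 (NPF4.4) had a difference of 0.42 and was not called in 10 of 11 further fits. Of 11 factors found under a bHLH name 1 fell and 1 rose. Both act in the iron response: BHLH101 differed by -1.33 and bHLH115 by 0.56. Neither was called in the dark arrays alone. Calls ended for AT1G68570 without rb10 replicate 1, for BHLH101 without rb10 replicate 2 and for bHLH115 without rb10 replicate 1 or rb10 replicate 2. UPB1, a bHLH factor that controls peroxidases in the root, was singled out after its values were seen and fell by 0.98. It is not among these 11, and neither is the bHLH factor NAI1, which rose by 1.46.

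**Figure D4:**
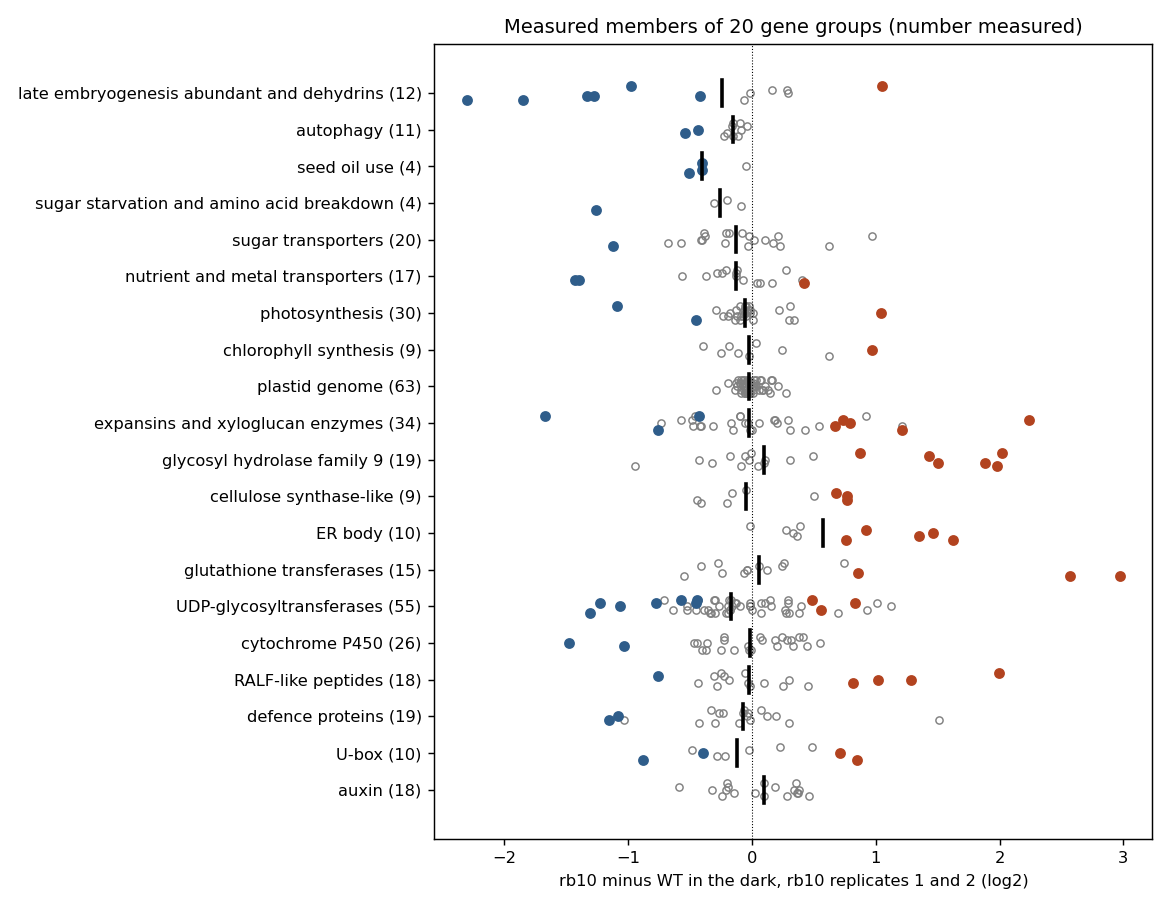
Difference between rb10 replicates 1 and 2 and WT in the dark (horizontal, log2) for each measured member of 20 gene groups, with filled points for called members, open points for the rest and a bar at the group median. Of the 12 late embryogenesis abundant and dehydrin genes 6 called ones lie left of 0, the called glycosyl hydrolase family 9 and ER body genes lie right of 0, and the 63 genes of the plastid genome stay close to 0.

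Cell wall genes moved in both directions in rb10. Of 34 expansins and xyloglucan endotransglucosylases, which loosen and rejoin wall polymers, 5 rose and 3 fell, with a median of -0.02. XTH19 had 10.001, 10.22 and 8.12 in rb10 and 7.95, 7.83 and 7.84 in WT, a difference of 2.24 (SE 0.12, adjusted p = 1.28e-05). All 3 rb10 arrays lay above all WT arrays for XTH19, but replicate 3 lay much nearer to WT than to replicates 1 and 2. EXLA2, an expansin-like gene, rose by 1.21, XTH18 by 0.79, XTH33 by 0.73 and EXPA9 by 0.67. EXLB1 had 7.22, 7.14 and 9.003 in rb10 and 8.75, 9.02 and 8.79 in WT and fell by 1.68. EXPA23 (-0.76) and EXGT-A3 (-0.43) were lower. XTH33, EXPA23 and EXGT-A3 were not called in the dark arrays alone. XTH33 lost its call without rb10 replicate 2, and XTH18, EXPA9, EXPA23 and EXGT-A3 without rb10 replicate 1 or rb10 replicate 2. No member of 4 pectin genes was called, with 3 at an unadjusted p under 0.05 in limma, and PMEPCRF differed by -0.49 (adjusted p = 0.0664). No laccase of 2 was called or reached an unadjusted p under 0.05, and LAC16 differed by 0.25.

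Several further groups were picked after their values were seen, so their counts describe them only. Of 19 genes of glycosyl hydrolase family 9, endoglucanases that cut cellulose-like glucans, 6 rose and none fell. GH9B8 had 8.32, 8.24 and 6.35 in rb10 and 6.28, 6.29 and 6.33 in WT, a difference of 1.98 (SE 0.11, adjusted p = 1.28e-05). GH9C2 rose by 1.88, GH9B13 by 1.50 and GH9B7 by 0.87, and GH9B15 (2.02) and GH9C3 (1.43) varied more among the WT arrays and lost their calls without rb10 replicate 1 or rb10 replicate 2. With equal array medians 1 member of the family was called lower. Of 9 cellulose synthase-like genes 3 rose, all of the CSLC type that builds the xyloglucan backbone: CSLC12 by 0.77, CSLC5 by 0.76 and CSLC04 by 0.68. CSLC12 was not called in the dark arrays alone, and under equal medians 2 members of this group were called higher and 2 lower. Of 8 tubulin and actin genes 3 rose and 1 fell: TUB1 by 1.29, TUB5 by 0.76, ACT11 by 0.75, and ACT12 by -0.60. ACT12 was not called in the dark arrays alone. TBL33, of 24 trichome birefringence-like genes, which acetylate wall sugars, rose by 1.07. GH9C3 was not called in the dark arrays alone. Calls ended for CSLC12 without rb10 replicate 1, for TBL33 without rb10 replicate 2 and for ACT12 without rb10 replicate 1 or rb10 replicate 2.

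Genes of the ER body, a compartment of Brassicaceae that stores a beta-glucosidase for defence, were another group picked after its values were seen. Of 10 members 5 rose, 5 were not called and none fell, with a median of 0.57. PYK10, that beta-glucosidase, had 13.00, 13.08 and 12.25 in rb10 and 12.10, 12.10 and 12.16 in WT, a difference of 0.92 (SE 0.09, adjusted p = 0.000398). NAI1, the bHLH factor required for ER bodies, had 9.40, 9.39 and 8.07 in rb10 and 7.89, 7.88 and 8.02 in WT, a difference of 1.46. For both genes all 3 rb10 arrays lay above all WT arrays, but replicate 3 lay close to the highest WT array and well below replicates 1 and 2. The jacalin-related lectin genes JAL31 and JAL33 rose by 1.62 and 1.35, and the beta-glucosidase gene BGLU21 by 0.76. AT1G54010 (GLL23), a GDSL-type lipase gene, had 11.20, 11.02 and 8.60 in rb10 and 8.66, 8.74 and 8.77 in WT and rose by 2.38. It was the called one of the 2 GDSL genes found by name. Among 24 beta-glucosidases 3 rose and 1 fell: beside PYK10 and BGLU21, BGLU15 differed by 0.59, not called in the dark arrays alone, and BGLU28 had 4.78, 4.51 and 6.87 in rb10 and 6.57, 7.001 and 6.42 in WT and fell by 2.02. Under equal medians 4 beta-glucosidases were called lower, in a setting where 1556 of all 17481 probe sets were. BGLU28 lost its call without rb10 replicate 2, and BGLU21 and BGLU15 without rb10 replicate 1 or rb10 replicate 2. This family was picked after its values were seen.

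FACT, which joins caffeic acid to fatty alcohols in root waxes, had 8.44, 8.68 and 5.89 in rb10 and 6.43, 5.71 and 5.79 in WT. It was the single measured gene of the suberin group, and rose by 2.58 (SE 0.26, adjusted p = 0.000342). PRX52, a peroxidase, had 4.57, 4.75 and 5.91 in rb10 and 5.93, 5.43 and 6.07 in WT and fell by 1.15. It was the called one of 7 class III peroxidases and lost its call without rb10 replicate 1. Markers of the parts of a seedling were few on the array. Neither root hair marker was called (EXPA18 -0.41) nor any of 3 guard cell markers (MUTE 1.26, adjusted p = 0.0806), with 0 and 1 of them at an unadjusted p under 0.05 in limma. The part of cell composition in these results was not tested.

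Plastid genes split. PORB, a protochlorophyllide oxidoreductase of etiolated tissue, had 11.52, 11.48 and 10.60 in rb10 and 10.69, 10.25 and 10.64 in WT, a difference of 0.97 (SE 0.16, adjusted p = 0.00582). It was the called member among 9 genes of chlorophyll synthesis and among 3 markers of etiolated seedlings, replicate 3 lay within the WT range, and the call was lost without rb10 replicate 1. Both LIL3 genes, which hold the last enzymes of chlorophyll synthesis at the membrane, rose: LIL3:1 had 9.18, 9.02 and 7.82 in rb10 and 7.55, 7.57 and 8.05 in WT, a difference of 1.38, and LIL3:2 rose by 0.94. This pair and the NDH and plastid genome groups below were picked after their values were seen. Of 30 photosynthesis genes 1 rose and 2 fell. SBPASE, of the carbon-fixing Calvin cycle, had 9.54, 9.51 and 8.72 in rb10 and 8.63, 8.28 and 8.55 in WT and rose by 1.04. LHB1B2 and LHCB4.1, light-harvesting proteins, differed by -1.09 and -0.46, and neither was called in the dark arrays alone. Of 17 genes of the plastid NDH complex, a proton-pumping electron carrier, 3 rose and none fell (NdhL 1.17, NdhN 0.94, CRR42 0.86), and of these CRR42 was called in the dark arrays alone. None of 63 genes of the plastid genome was called by limma, 2 had an unadjusted p under 0.05, and their differences ran from -0.29 to 0.28. LHB1B2 lost its call without rb10 replicate 1, CRR42 without rb10 replicate 2, and LIL3:2, LHCB4.1, NdhL and NdhN without rb10 replicate 1 or rb10 replicate 2.

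Of 15 glutathione transferases 3 rose: GSTU20 had 7.76, 9.19 and 5.89 in rb10 and 5.87, 4.85 and 5.80 in WT, a difference of 2.97 (SE 0.51, adjusted p = 0.00641). GSTU25 rose by 2.57. GSTU18 differed by 0.86 and was not called in the dark arrays alone or with equal medians. Of 55 UDP-glycosyltransferases, which attach sugars to small molecules, 3 rose and 7 fell, and under equal medians 1 was higher and 10 lower. UGT84A3 fell by 1.31, UGT85A5 by 1.23 and UGT71C2 by 1.07, and UGT71C1, a near relative of the last, had 6.55, 6.17 and 5.78 in rb10 and 5.53, 5.54 and 5.52 in WT and rose by 0.83. Of 26 cytochrome P450 genes 2 fell, the neighbours CYP71B20 (-1.48) and CYP71B19 (-1.04), the second of which was not called in the dark arrays alone. Of 6 CC-type and related glutaredoxins 2 fell: ROXY2 by 1.71, and GRXC1, which differed by -0.38 and was not called in the dark arrays alone. Calls ended for UGT71C1 and CYP71B20 without rb10 replicate 1, for GSTU20 and ROXY2 without rb10 replicate 2, and for GSTU18, UGT85A5, CYP71B19 and GRXC1 without rb10 replicate 1 or rb10 replicate 2.

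Of 5 SAUR genes, small auxin-induced genes tied to cell elongation, 2 rose. AT4G34800 (SAUR4) had 8.02, 8.08 and 7.19 in rb10 and 6.43, 5.52 and 6.62 in WT, a difference of 1.86 (adjusted p = 0.00408), with all rb10 arrays above all WT arrays. AT1G19840 (SAUR53) rose by 1.85. None of 18 auxin response and transport genes was called by limma, 2 had an unadjusted p under 0.05, and GH3.17 differed by 0.37 (adjusted p = 0.0766). Of the peptide hormone genes, picked after their values were seen, 4 of 18 RALF-like genes rose and 1 fell, with RALFL34 higher by 1.29 and RALFL29 lower, at -0.76. RALFL18 (1.99), RALFL27 (1.02) and RALFL24 (0.82) were not called in the dark arrays alone. Of 16 CLE genes CLE44, whose peptide maintains vascular stem cells, had 6.72, 6.85 and 8.67 in rb10 and 8.49, 8.79 and 8.69 in WT and fell by 1.87. CLE1 (-1.58) and CLE26 (0.77) were not called in the dark arrays alone. Calls ended for CLE26 without rb10 replicate 1, for RALFL24 and CLE1 without rb10 replicate 2, and for RALFL18, RALFL27 and RALFL29 without rb10 replicate 1 or rb10 replicate 2.

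Of 19 defence genes the plant defensins LCR67 and PDF1.4 were lower, by -1.15 and -1.09, and neither was called in the dark arrays alone. Of 67 low-molecular-weight cysteine-rich genes, to which LCR67 belongs, 4 fell and none rose, with LCR35 at -1.34, not called in the dark arrays alone, and LCR62 at -0.91, which lost its call without rb10 replicate 1 or rb10 replicate 2. Of 10 U-box ubiquitin ligases PUB39 (0.85) and PUB54 (0.71) were higher and PUB19 (-0.88) and PUB25 (-0.40) lower, and PUB54 and PUB25 were not called in the dark arrays alone. Of 16 ubiquitin-conjugating enzymes UBC16 was higher and UBC31 and UBC32 lower, none of them in the dark arrays alone. No WRKY factor of 7 was called, with 3 at an unadjusted p under 0.05 in limma, and WRKY47 had -0.43 (adjusted p = 0.0637). No ERF (3), MYB (2) or NAC (1) factor was called or reached an unadjusted p under 0.05, and DREB2C, TRY and NAC014 differed by 0.47, 0.50 and -0.12. Of 25 bZIP factors bZIP48 fell by 1.81 and bZIP75 by 1.43. Hsp70-2, 1 of 7 large chaperone and heat shock factor genes, had 5.73, 5.59 and 5.99 in rb10 and 6.32, 6.42 and 6.43 in WT, a difference of -0.73. The small heat shock gene ATHSP22.0 differed by 0.51 (adjusted p = 0.442). Hsp70-2 lost its call without rb10 replicate 2, and the named defensin, U-box and ubiquitin-conjugating genes and bZIP75 without rb10 replicate 1 or rb10 replicate 2. The cysteine-rich, ubiquitin-conjugating and bZIP groups were picked after their values were seen.

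HTB2, a histone H2B gene, had 10.09, 9.96 and 9.02 in rb10 and 8.46, 8.65 and 8.91 in WT, a difference of 1.35 (adjusted p = 0.000947). All rb10 arrays lay above all WT arrays, but replicate 3 lay close to the highest WT array. HTB2 was the called one of 13 histone and cell cycle genes. Neither of 2 cytosolic ribosomal protein genes was called or reached an unadjusted p under 0.05 (PGY1 0.08), and of 5 ribosome biogenesis genes none was called and 1 did (RRP41L 0.89, adjusted p = 0.051). GI, the measured clock gene, differed by -0.27 (adjusted p = 0.162), AQI, named in the table as an aquaporin interactor, by 0.08, and none of 3 reference genes was called (GAPC2 0.16). Of 17 IQ-domain genes, which bind calmodulin, 3 rose and 1 fell, with IQD30 and IQD31 higher by 0.92 and 0.82, and under equal medians 2 were higher and 2 lower. Of 32 serine carboxypeptidase-like genes scpl28 rose by 2.23, SCPL15 by 2.19 and SCPL27 by 0.81. Of 10 subtilases SBT4.12 had 10.73, 10.94 and 9.06 in rb10 and 9.11, 9.05 and 9.02 in WT and rose by 1.77. These last 3 groups were picked after their values were seen. Calls ended for scpl28 and SCPL27 without rb10 replicate 2 and for SCPL15 without rb10 replicate 1 or rb10 replicate 2.

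A few more genes with symbols were chosen after their values were seen, out of 213 called genes that carry one (115 higher, 98 lower). FaTA, the thioesterase that releases fatty acids in the plastid, had 9.95, 10.12 and 8.16 in rb10 and 8.45, 8.07 and 8.14 in WT and rose by 1.81 (SE 0.14, adjusted p = 9e-05). QQS, an Arabidopsis-specific gene that affects starch content, had 8.03, 7.67 and 5.34 in rb10 and 5.50, 6.25 and 6.36 in WT and rose by 1.81. WAG2, a kinase of auxin transport, rose by 1.80 and AGO7, which acts in the trans-acting small RNA pathway, by 1.38. AGO7 lost its call without rb10 replicate 1, and WAG2 without rb10 replicate 1 or rb10 replicate 2. RR16, a cytokinin response regulator, had 2.94, 2.99 and 5.29 in rb10 and 5.15, 4.65 and 5.09 in WT and fell by 1.999. Its signals in rb10 replicates 1 and 2 were weak, under the 25th percentile of mean signal of 4.61.

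Called genes were found on every nuclear chromosome. Between 9.11% and 11.2% of the measured genes of each were called, against 10.1% of all tested probe sets. Of 10346 pairs of adjacent tested genes both members were called in 150, and 111 of these moved the same way. The number expected for unrelated genes was not computed, so whether neighbours moved together was not tested. Next to RAPTOR1, AT3G08840 had 7.73, 7.61 and 8.46 in rb10 and 8.55, 8.70 and 8.54 in WT. Its difference of -0.93 (SE 0.10, adjusted p = 0.000526) was called in each further fit, and it was -1.07 after light (adjusted p = 4.02e-05). No other measured gene up to 4 places from RAPTOR1 was called.

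The light arrays give the same genotype comparison in other seedlings, since dark and light arrays are separate samples. Dark and light calls of the same fit share each probe set's estimate of spread, so these calls are not independent. After light 23.6% of probe sets differed between the genotypes in the 11-array fit, 11.8% in each direction. Of the 993 probe sets higher in rb10 in the dark 940 were also higher after light (94.7%), 782 of them called (78.8%), and 18 were called lower. Of the 768 lower in the dark 720 were also lower (93.8%), 542 of them called (70.6%), and 3 were called higher. The median difference of the first set was 0.90 in the dark and 0.82 after light, and that of the second was -0.72 and -0.65. RAPTOR1 differed by -0.66 after light (adjusted p = 0.00132), MSRB9 by 2.74, XTH19 by 0.91, SWEET2 by -0.73, ASPGB1 by -1.15, PYK10 by 0.95 and LEA by -1.59, each called in the 11-array fit. In the 12-array fit MSRB9 was called after light (limma adjusted p = 0.0226). There XTH19 (0.161), SWEET2 (0.0783), ASPGB1 (0.0582) and LEA (0.0703) were not. With the light contrast of that fit 1020 of the dark calls were also called in the same direction, 626 higher and 394 lower.

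**Figure D5:**
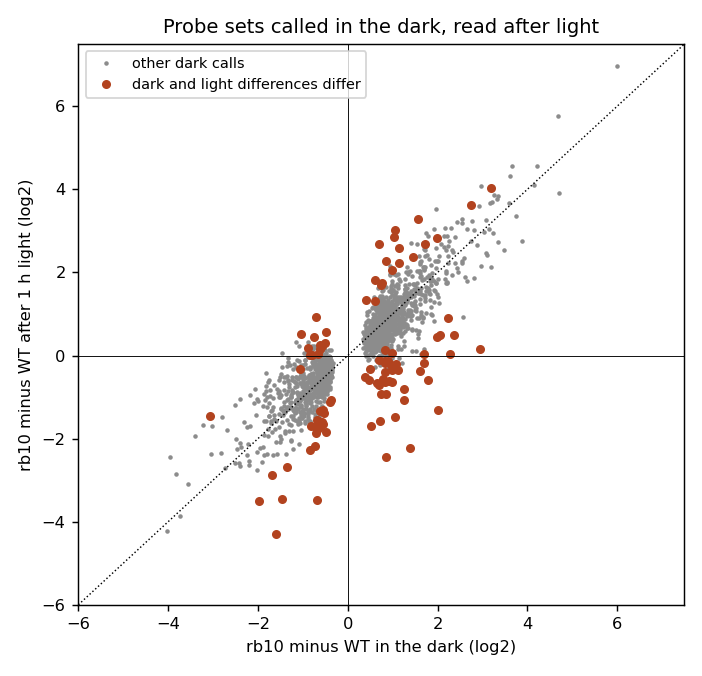
Difference between rb10 and WT after 1 h of light (vertical, log2) against that in the dark with rb10 replicates 1 and 2 (horizontal, log2) for the 1761 probe sets called in the dark, with a dotted line of equality. Larger coloured points are the 97 whose dark and light differences differ by the test of that difference, and most grey points lie in the quadrants of equal sign.

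The difference between the dark and the light comparison was itself tested, and 394 probe sets were called (2.25%), 291 with a higher value in the dark (1.66%) and 103 with a lower one (0.589%). With every array as labelled 380 were called (2.17%), 292 higher (1.67%) and 88 lower (0.503%). Among the dark calls 59 of the 993 higher and 38 of the 768 lower were called in this test, 97 in all. XTH18 rose by 0.79 in the dark and fell by 0.60 after light. PORB differed by 0.97 in the dark and by -0.22 after light (adjusted p = 0.334), and AT2G23270 by 2.95 and 0.15. ATG8E differed by -0.54 in the dark and -1.09 after light, and ATL8 by -1.26 and -2.06, and the difference of the differences was not called for either. It was called for AT1G22810, with 0.85 in the dark and -2.43 after light, and for AT5G05965, with -1.61 in the dark and -4.29 after light. The 394 became 121 without rb10 dark replicate 1, 134 without rb10 dark replicate 2, 242 without WT light replicate 1 and 252 without rb10 light replicate 2.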

How the data were processed

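The deposited values were log2 signals per probe set, made by the authors from scanned arrays. RMA and GCRMA are both named, per the submitters' processing notes, with no version and no word on which gave these values. Array signal gives no depth, and 3 arrays a group limit the precision. Probe sets were named through a table of GEO's platform annotation and a TAIR10.1 gene table: 16722 had 1 gene, 759 several and 20927 none, and the 17481 with a gene were tested.

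A linear model with 4 group means (limma 3.58.1, functions lmFit and eBayes, under R 4.3.3) was fitted over 12 arrays (8 residual degrees of freedom), and over 11 without the array labelled rb10 dark replicate 3 (7). P-values were Benjamini-Hochberg adjusted over all tested probe sets. The scripts were tested on simulated data that held no array at odds with its label, so that case was not tested. Genes named were the 12 largest rises and 12 largest falls with groups that did not overlap, every gene called with every array, up to 4 called members a group (otherwise the smallest p), the 6 called genes with the largest dark against light difference, and the TOR and RAPTOR genes; others are said to be chosen later. The comparison, its members and the gene groups were chosen with earlier results of these data known. Alternatives changed the normalization, filter, prior, array weights, arrays fitted and replicate block. Promoter motifs were not analysed here. Figures used matplotlib 3.10.9.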

Additional observations from a re-analysis of the deposited data

Results flagged for a closer look

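For 22 named genes the genotype difference in the dark, with rb10 replicates 1 and 2, and that after light differed from each other in the limma test of the difference itself (adjusted p under 0.05). Over all tested probe sets 394 of 17481 were called in this test, or 2.25%. Among the 22 are 6 genes named for the size of this difference among dark calls, so their call was fixed by that choice. Each value below is the dark difference minus the light difference in log2 units, and no cause was tested. The heat shock gene ATHSP22.0 had the largest, 4.31 (adjusted p = 0.0046), from 0.51 in the dark and -3.80 after light. Next came AT1G35210 (3.61), AT5G46295 (3.32) and AT1G22810 (3.28), each higher in rb10 in the dark and lower after light. The dark calls of these 3 genes ended without rb10 replicate 1 or rb10 replicate 2, and those of AT5G46295 and AT1G22810 also in the dark arrays alone. AT2G23270 had 2.79, AT3G29000 2.78 and AT5G05965 2.68. The ubiquitin ligase PUB54 had 2.30, CML42, a calmodulin-like gene, 2.07 and CCR2, a cinnamoyl-CoA reductase, 1.78, all higher in the dark and with a value below 0 after light. CML42 and CCR2 were picked after their values were seen. The dark calls of AT3G29000, PUB54, CML42, CCR2, UGT73B4 and PPDK ended in each of the same 3 fits. For Hsp70-2 the value was 1.45, for XTH18 1.39, for XTH19 1.33, for PORB 1.19, for UGT73B4 0.81 and for PPDK 0.72.

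In 6 genes the value was below 0. AT3G16660 had -1.62, because its fall was deeper in the dark (-3.06) than after light (-1.44). GI had -0.68, with -0.27 in the dark and 0.42 after light. The other 4 were higher in rb10 in both and more so after light: XTH33 (-0.98), AT3G59130 (-0.98), NAI1 (-0.90) and GH9B8 (-0.86). With every array as labelled the limma test was no longer called for 11 of the 22. The adjusted p was then 0.806 for AT3G16660, 0.715 for XTH19, 0.407 for AT2G23270, 0.309 for UGT73B4, 0.287 for GH9B8, 0.27 for PORB, 0.144 for NAI1, 0.107 for CML42, 0.0829 for AT5G46295, 0.075 for XTH33 and 0.0722 for XTH18.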

How the results depend on the processing

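Results changed most with the choice of arrays. With every array as labelled the count of dark calls was 1, and it was 0 with the replicate block, the dark arrays alone, every probe set on the array, or a trended and robust prior (limma, 1838 to 5221 at an unadjusted p under 0.05), and 1345 with array weights. Leaving out single arrays gave 0 to 1761, where 1761 is the fit without rb10 dark replicate 3. With replicates 1 and 2 the 1761 became 968 with the dark arrays alone, 2968 with every probe set and 624 with a 2-fold minimum, and 613 to 1686 on leaving out single arrays. The 1324 dark calls also called after light became 2261 with every probe set and 524 to 1223 on leaving out arrays. The 394 called for the dark against light difference became 260 with the replicate block, 681 with every probe set, 618 with the trended and robust prior and 121 to 303 on leaving out arrays. The cause of these shifts was not tested. Deviations of same-numbered dark arrays from their group means correlated at 0.0734, 0.015 and -0.0197. The rb10 dark mean holds the doubted array, so these values cannot decide whether same-numbered arrays are paired. In groups without that array, rb10 light with WT light gave 0.0589, -0.000955 and 0.0289. WT light with WT dark gave -0.022, 0.00868 and 0.0654. The replicate block gave 1337 dark calls with replicates 1 and 2. No called named gene changed direction under the settings run, but LAC16, PGY1, NAC014, AQI and RAPTOR2, none of them called, did in at least 1. Of 159 called ones 109 stayed called with the dark arrays alone, 86 without rb10 dark replicate 1 and 85 without replicate 2. The alternatives for the light counts and for single genes without 1 array were chosen after seeing the data.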
